A study of Mus musculus with 8 samples.

Results

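The genes described here are 39 genes of sugar metabolism and its control by oxygen, chosen by name: 23 of glycolysis (glucose and lactate transporters, the enzymes that take glucose to lactate, and regulators of those steps), 7 of the pentose phosphate pathway and 9 of the response to low oxygen. All 39 were found among the 55359 gene identifiers listed in every sample, and 36 of them passed the filter for testing. Their RNA was measured by RNA sequencing in double-positive (CD4+CD8+) thymocytes with absent or low to intermediate surface TCR beta, sorted from the thymus of mice aged 5 weeks. The control group, genotype LSL-Sting1-N153S/+, had 4 samples (replicates 1 to 4) and the Lck-cre group, genotype LSL-Sting1-N153S;Lck-cre, had 4 samples (replicates 5 to 8), each with 1 female (replicates 1 and 5) and 3 males. Both groups thus carry the N153S allele of Sting1 behind a lox-stop-lox cassette. STING, the protein of Sting1, is the adaptor through which cells answer cytosolic DNA, N153S is a gain-of-function variant of it, and Cre under the Lck promoter removes the stop in T-lineage cells. Mice with Lck-cre alone and mice without the allele were not analysed here, so the presence of Cre and the release of the allele cannot be told apart. The labels do not say whether a sample was 1 mouse or a pool, and the p-values measure only the spread between these samples.

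Glycolysis breaks glucose down to pyruvate in the cytosol, and lactate dehydrogenase turns pyruvate into lactate and back. The pentose phosphate pathway leaves glycolysis at glucose 6-phosphate: its oxidative branch makes NADPH, and its non-oxidative branch exchanges sugars between ribose 5-phosphate, the sugar of nucleotides, and glycolysis. HIF-1, made of Hif1a and Arnt, is a transcription factor whose alpha subunit is marked for destruction by the oxygen-dependent prolyl hydroxylases of the Egln genes, and its targets include many glycolytic genes. Thymocytes are known to use glycolysis most while they proliferate, at the double-negative to double-positive transition, and little as resting double-positive cells.

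Levels are given in FPKM as listed by the authors (in principle read fragments divided by the length of the gene and by the size of the library). The listed mean coverage (read depth) did not keep 1 ratio to FPKM across genes. Slc2a1, at 7.03 to 8.27 FPKM, had a coverage of 49.8 to 58.6. Slc2a3, at 7.85 to 10.4 FPKM, had a coverage of 2.98 to 3.82. Comparisons of level between different genes therefore hold for FPKM alone. Changes are log2 differences of FPKM + 0.5, Lck-cre minus control, tested with limma in a model with sex, and a gene was called at a Benjamini-Hochberg adjusted p under 0.05 over all 12337 genes tested. Of the 36 genes tested, 13 rose and 4 fell in Lck-cre samples, and 19 were not called. Among all tested genes 25.8% were called, 15.4% higher and 10.4% lower. The median log2 change was 0.14 over the 36 genes and 0.01 over all tested genes, and 25 of the 36 were above 0. The groups did not overlap for 19 of the 36, 15 higher and 4 lower, against 29.4% of all tested genes (17.1% higher, 12.3% lower). The changes were small: the ratio of mean FPKM ran from 1.15 to 1.54 for the genes that rose and from 0.752 to 0.832 for those that fell. A lower level in a bulk sample can come from fewer cells with the RNA or less RNA per cell, which cannot be told apart.

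The direction of the 17 calls was the same under every alternative run, but most sat close to the threshold. Of the 10 glycolysis calls, all ended without control replicate 1 (adjusted p of 0.0512 to 0.157 by limma) and without Lck-cre replicate 5 (0.0517 to 0.158). Both of these fits compare the males alone, as each group has 1 female and sex is in the model, so they are not separate checks. Without control replicate 2, 8 of these 10 ended (0.0607 to 0.104), without Lck-cre replicate 7, 7 ended (0.0523 to 0.0977), without Lck-cre replicate 8, 5 ended (0.0558 to 0.0917), and without control replicate 3 or 4, 4 ended in each case (0.0609 to 0.0981 and 0.0646 to 0.0775). All 4 pentose phosphate calls also ended without control replicate 1 (0.0512 to 0.0872) or Lck-cre replicate 5 (0.0517 to 0.0871), and 1 or 2 of them when control replicate 2, control replicate 4, Lck-cre replicate 7 or Lck-cre replicate 8 was dropped (0.0521 to 0.0778). Without Lck-cre replicate 6 none of the 17 ended. The calls of Fam162a and Mif held in all of these fits. With the authors' TPM values in place of FPKM, 1300 genes were called higher and 2067 lower, against 1901 and 1279 with FPKM, and the median of all tested genes moved to -0.06. Against that shift the glycolysis list had a TPM median of 0.06, with 3 genes higher and 3 lower, the pentose phosphate list 0.12, with 3 higher and 0 lower, and the hypoxia list -0.16, with 2 higher and 1 lower.

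The libraries summed to 413835 to 437426 FPKM in controls and 437778 to 457145 FPKM in Lck-cre samples, so every Lck-cre sum was above every control sum. The part of this difference in the changes of FPKM and in their shift with TPM was not tested. From 12177 to 12342 genes were at 1 FPKM or more, and the files give no read totals. Sting1 stood at 11.6 to 15.3 FPKM in the controls and at 85.4 to 232 FPKM in the Lck-cre samples (replicates 5 to 8: 220.9, 85.4, 129.6 and 232), which fits the labels. Of 10 marker genes of double-positive thymocytes (Cd4, Cd8a, Rag1 and others), all 10 were expressed. In Lck-cre samples 4 were called lower and 0 higher, beside 10.4% lower and 15.4% higher of all tested genes. Their summed level was 5717 to 6137 FPKM in controls and 4424 to 5697 FPKM in Lck-cre samples. Of 10 cell cycle genes, 9 were called higher, beside 15.4% of all tested genes. The summed level of the cell cycle genes was 773 to 1092 FPKM in controls and 1246 to 1653 FPKM in Lck-cre samples. Their part in the results on sugar metabolism was not tested. Of the markers of other cells, the B cell genes Ms4a1 and Pax5 were at or near 0, Cd79b was at 11.9 to 16.6 FPKM in controls and 7.51 to 15.1 FPKM in Lck-cre samples, and 6 erythroid genes summed to at most 0.35 FPKM. The 7 myeloid and dendritic genes summed to 55.3 to 72.9 and 55.5 to 67.7 FPKM, nearly all of it Cst3, the 5 of thymic epithelium to 3.45 to 5.55 and 3.84 to 5.13 FPKM, mostly Epcam, and the 5 of endothelium and stroma to 44.0 to 53.7 and 51.6 to 58.6 FPKM, mostly Pecam1, with Pdgfra at 0. The other myeloid genes apart from Itgam, 5 in number, stayed under 1 FPKM in every sample but had at least 2 times the control mean in Lck-cre samples, with no overlap for Lyz2 (0.136 to 0.185 and 0.297 to 0.951 FPKM) and Csf1r (at most 0.012 and 0.063 FPKM). The same held for the 4 epithelial genes besides Epcam, with no overlap for Krt8 (0.038 to 0.11 and 0.162 to 0.238 FPKM). Of the stromal genes, Pdgfrb was at 0.414 to 0.784 and 0.635 to 1.55 FPKM, with overlap. Cdh5 was at 0 in all controls and at 0 to 0.101 FPKM in Lck-cre samples. Col1a1 was at 0.043 to 0.126 and 0.085 to 0.154 FPKM, with overlap. These genes lay below the filter, and their part in the results on sugar metabolism was not tested.

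The sequences in front of some of these genes are shown because the hypoxia genes that changed did so in opposite directions, and of the pair of lactate dehydrogenase genes Ldhb fell while Ldha missed the threshold. Each runs 5′ to 3′ over the 250 bases before a start of transcription annotated by RefSeq on GRCm38.p6, and the capitals mark every ACGTG, the core of the HIF binding site, on either strand (CACGT is its reverse complement). Fam162a lies on the minus strand at chr16:36071562-36071811, Mif on the minus strand at chr10:75860278-75860527 and Egln3 on the minus strand at chr12:54203875-54204124. Ldha lies on the plus strand at chr7:46845554-46845803 and Ldhb on the minus strand at chr6:142507958-142508207. A stretch of 20 bases shortly after the start, not printed here, was found in GENCODE transcripts of Fam162a, Egln3 and Ldhb. The same stretch was not found in those of Mif and Ldha, so their starts were not matched in this way. For Ldha 2 starts are listed.
Fam162a: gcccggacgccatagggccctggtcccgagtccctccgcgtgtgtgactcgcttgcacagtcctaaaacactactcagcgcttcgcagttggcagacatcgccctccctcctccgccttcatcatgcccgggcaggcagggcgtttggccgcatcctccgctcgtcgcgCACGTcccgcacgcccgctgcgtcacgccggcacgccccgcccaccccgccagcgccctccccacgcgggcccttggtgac
Mif: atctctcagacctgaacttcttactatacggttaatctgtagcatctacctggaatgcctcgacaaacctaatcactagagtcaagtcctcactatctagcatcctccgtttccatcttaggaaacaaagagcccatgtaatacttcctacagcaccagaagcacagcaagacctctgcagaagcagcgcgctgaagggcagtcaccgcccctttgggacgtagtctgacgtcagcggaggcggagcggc
Egln3: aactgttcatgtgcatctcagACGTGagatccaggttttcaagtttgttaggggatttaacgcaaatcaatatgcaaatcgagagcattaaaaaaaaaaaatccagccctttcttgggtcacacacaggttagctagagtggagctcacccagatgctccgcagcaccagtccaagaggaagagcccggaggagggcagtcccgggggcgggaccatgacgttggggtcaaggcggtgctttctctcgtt
Ldha: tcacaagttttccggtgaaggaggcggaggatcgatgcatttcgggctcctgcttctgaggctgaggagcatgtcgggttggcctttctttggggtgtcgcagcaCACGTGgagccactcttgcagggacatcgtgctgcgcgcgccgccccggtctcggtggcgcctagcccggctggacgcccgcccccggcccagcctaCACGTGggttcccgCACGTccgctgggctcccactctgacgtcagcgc
Ldhb: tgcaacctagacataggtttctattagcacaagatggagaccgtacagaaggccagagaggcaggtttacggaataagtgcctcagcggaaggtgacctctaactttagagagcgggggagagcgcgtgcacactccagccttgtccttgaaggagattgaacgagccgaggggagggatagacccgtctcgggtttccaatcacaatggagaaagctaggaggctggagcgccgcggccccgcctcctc
The match nearest to the start begins 81 bases before it in Fam162a, 229 bases before it in Egln3 and 34 bases before it in Ldha, where 2 of the matches are CACGTG, a motif of its own (the E-box) that contains ACGTG. These letters are not in the window of Mif or of Ldhb. A promoter entry was found for 37 of the 39 genes. ACGTG on either strand, before any listed start of the gene, was in 19 of these (51.4%), against 18.5% of the 27025 genes in the table. It was in 12 of 22 glycolysis promoters, 0 of 7 pentose phosphate promoters and 7 of 8 hypoxia promoters. It was in 6 of the 13 genes that rose, 2 of the 4 that fell and 9 of the 17 tested genes with a promoter that were not called. CACGTG was in 6 of the 37 (16.2%) and in 6.86% of all genes. Some of the 39 genes were chosen as HIF targets, so their higher share of ACGTG can come from that choice and is no result of these samples. A match of letters is not a measured binding site.

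**Figure D1:**
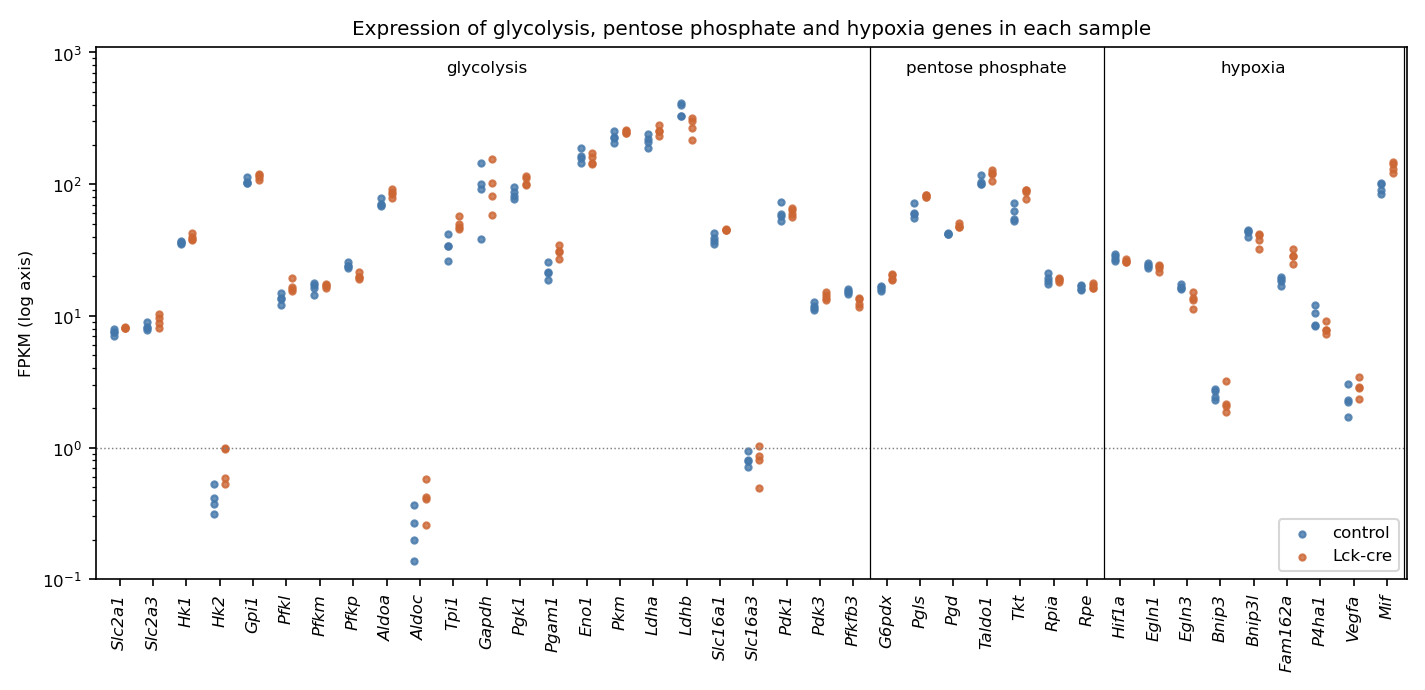
FPKM (log axis) of the 39 genes in each of the 8 samples, 1 point per sample, with blue for control and orange for Lck-cre and a dotted line at 1 FPKM. Levels run from under 1 FPKM for Hk2, Aldoc and most samples of Slc16a3 to 413.5 FPKM in the highest sample of Ldhb, and the 2 genotypes lie close together at almost every gene.

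The glycolytic RNAs with the highest FPKM under their own gene were Ldhb, Pkm, Ldha and Eno1. Their control means were 367 ± 44.6, 228 ± 18.6, 213 ± 21.7 and 164 ± 17.3 FPKM (SD, n = 4 samples). By mean coverage Pgk1, at 489 to 737, was above Eno1, at 293 to 384. The genes of the glucose transporters, of hexokinase and of phosphofructokinase had far lower FPKM than Ldhb, Pkm, Ldha and Eno1. Of the glycolysis genes, 20 of 23 were tested, 7 rose and 3 fell, and the median log2 change was 0.14. Among all tested genes 15.4% were called higher and 10.4% lower.

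Neither glucose transporter was called. Slc2a1, which encodes GLUT1, was at 7.03, 7.54, 7.98 and 7.56 FPKM in controls and at 8.08, 8.07, 8.27 and 8.08 FPKM in Lck-cre samples. All 4 Lck-cre samples lay above all controls, but by little: the log2 change was 0.10 (SE 0.07, adjusted p = 0.270 by limma). Slc2a3, which encodes GLUT3, was at 8.29 ± 0.475 and 9.25 ± 0.969 FPKM with overlapping groups (adjusted p = 0.245).

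Hexokinase traps glucose in the cell as glucose 6-phosphate. By FPKM, Hk1 carried nearly all hexokinase RNA, at 36.0 ± 0.770 and 39.5 ± 2.21 FPKM, again with no overlap and not called (log2 change 0.13, adjusted p = 0.123 by limma). Hk2, the isoform of growing and hypoxic cells, was below 1 FPKM in every sample and not tested: it was at 0.315, 0.527, 0.414 and 0.370 FPKM in controls and 0.994, 0.530, 0.588 and 0.967 FPKM in Lck-cre samples. Its groups did not overlap, though control replicate 2 and Lck-cre replicate 6 nearly met. The Hk2 share of Hk1 and Hk2 RNA was 1.11% ± 0.238 and 1.89% ± 0.510 (exact permutation p = 0.0571, two-sided). Gpi1, the isomerase that makes fructose 6-phosphate, was not called (105 ± 5.70 and 114 ± 4.68 FPKM, adjusted p = 0.184).

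Phosphofructokinase makes the committed step of glycolysis, and its isozyme genes moved apart. Pfkl, the liver-type subunit, was at 12.1, 13.7, 13.4 and 15.0 FPKM in controls and 16.6, 16.0, 15.5 and 19.5 FPKM in Lck-cre samples, without overlap. It rose by a log2 of 0.31 (SE 0.09, adjusted p = 0.0342 by limma, 0.0265 to 0.133 when each sample was left out in turn), and the call ended with TPM values (0.0941) and with quantile normalization (0.0516). Pfkp, the platelet-type subunit, had the highest FPKM of the isozymes. It was at 23.1, 25.6, 23.9 and 23.8 FPKM in controls and 19.6, 18.9, 19.7 and 21.7 FPKM in Lck-cre samples. Every Lck-cre sample lay below every control, and the log2 change was -0.26 (SE 0.06, adjusted p = 0.0205, 0.0251 to 0.0684 with samples left out). Pfkm, the muscle-type subunit, stood at 16.4 ± 1.49 and 16.9 ± 0.502 FPKM and was not called (log2 change 0.04, 95% interval -0.12 to 0.21). Pfkp shares sequence with the overlapping gene Pitrm1, so some of its reads could have been assigned to either. Mean coverage over the samples ranked the isozymes otherwise than FPKM. It ran from 45.0 to 74.1 for Pfkl, from 47.0 to 64.9 for Pfkp and from 15.5 to 19.6 for Pfkm.

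As shares of the summed FPKM of the isozymes within each sample, which no scaling between samples alters, Pfkl was at 25.1% ± 2.27 in controls and 31.4% ± 1.5 in Lck-cre samples and Pfkp at 44.6% ± 1.06 and 37.2% ± 0.873 (SD, n = 4 each). In neither case did the groups overlap, and each gave an exact permutation p of 0.0286 (two-sided), the smallest that the 70 assignments of samples allow, or 0.0952 adjusted over the 10 isozyme shares computed. The Pfkm share was 30.4% ± 2.83 and 31.5% ± 1.64 (exact permutation p = 0.571). With each sample left out in turn, the difference of the Pfkl share ran from 5.56 to 7.36 percentage points and that of the Pfkp share from -6.94 to -7.80. The regulator Pfkfb3, which makes the activator fructose 2,6-bisphosphate, fell from 15.3 ± 0.575 to 12.7 ± 0.954 FPKM (log2 change -0.26, adjusted p = 0.0326 by limma, 0.0206 to 0.0953 with samples left out), with no overlap.

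**Figure D2:**
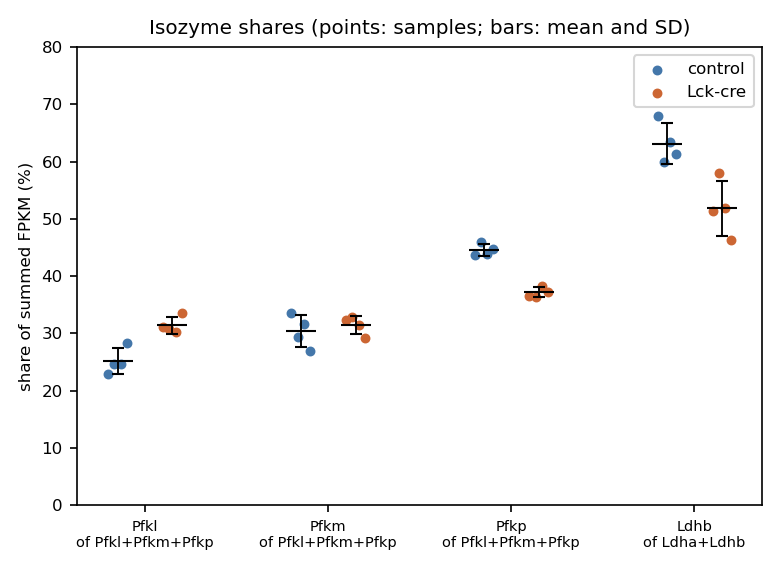
Share (%) of each gene in the summed FPKM of its isozymes, 1 point per sample, with the mean and SD of the 4 samples of each genotype in black. The Pfkl share is higher and the Pfkp and Ldhb shares lower in all 4 Lck-cre samples (orange) than in all 4 controls (blue), and the Pfkm shares overlap.

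Aldolase and triose phosphate isomerase split fructose 1,6-bisphosphate into triose phosphates. Aldoa rose from 71.5 ± 4.54 to 85.1 ± 5.61 FPKM (log2 change 0.25, adjusted p = 0.0347 by limma, 0.0323 to 0.128 with samples left out), a call that ended with TPM values (0.109) and with quantile normalization (0.0680). A further identifier with the same symbol, listed far lower, was not used. The groups almost touched, with control replicate 4 at 78.08 and Lck-cre replicate 8 at 78.16 FPKM. Aldoc, the brain-type aldolase, was below 1 FPKM in every sample and not tested. Tpi1 was at 25.9, 33.9, 33.9 and 41.7 FPKM in controls and 46.9, 45.5, 49.5 and 57.5 FPKM in Lck-cre samples. The controls spread widely, but each Lck-cre sample was above all of them, and Tpi1 had the largest rise among the 20 tested glycolysis genes (log2 change 0.57, SE 0.11, adjusted p = 0.0107, 0.00422 to 0.0517 with samples left out).

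The payoff steps make ATP and pyruvate. Pgk1, phosphoglycerate kinase, was at 77.5, 81.0, 94.4 and 87.4 FPKM in controls and 99.95, 97.7, 115 and 111 FPKM in Lck-cre samples, without overlap. It rose by a log2 of 0.32 (SE 0.08, adjusted p = 0.0182 by limma, 0.00652 to 0.0764 with samples left out). Pgam1, phosphoglycerate mutase, was at 18.7, 21.6, 21.2 and 25.8 FPKM in controls and 30.4, 26.9, 31.1 and 34.7 FPKM in Lck-cre samples, again without overlap, and rose by a log2 of 0.49 (SE 0.10, adjusted p = 0.0128, 0.00370 to 0.0611 with samples left out). Eno1 (enolase) was at 164 ± 17.3 and 155 ± 14.8 FPKM and was not called (log2 change -0.08, 95% interval -0.26 to 0.10). Pkm, pyruvate kinase, was at 228 ± 18.6 and 250.5 ± 6.37 FPKM with overlapping groups (adjusted p = 0.144).

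Gapdh, the dehydrogenase between the triose phosphates and Pgk1, was at 38.2, 100.1, 92.0 and 144 FPKM in controls and 81.2, 58.1, 102 and 154 FPKM in Lck-cre samples. The highest sample was 4.04 times the lowest, the groups overlapped, and the log2 change was 0.14 (SE 0.32, adjusted p = 0.778 by limma). The gene has 77 listed copies of near-identical sequence (95% identity or more over at least 300 bases), 27 of them at 99% or more. Of the FPKM summed over Gapdh and these copies, 88.7% to 96.0% was listed under the copies. The annotated Y-linked copy Gapdh-ps15 was listed at 26.5 and 40.4 FPKM in the females, which have no Y chromosome. Summed with its copies, Gapdh was at 958, 1117, 1239 and 1280 FPKM in controls and 1391, 1408, 1461 and 1463 FPKM in Lck-cre samples. On this sum, chosen after the data were seen and made of values scaled by each copy's own length, the highest sample was 1.53 times the lowest, the groups did not overlap and the log2 change was 0.33 (SE 0.09, adjusted p = 0.0349). This sum was above the FPKM of every other glycolytic gene. How reads with several matches were assigned is not known, so the sum may count a read more than once. The rank of Gapdh among the glycolytic RNAs is therefore not established.

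**Figure D3:**
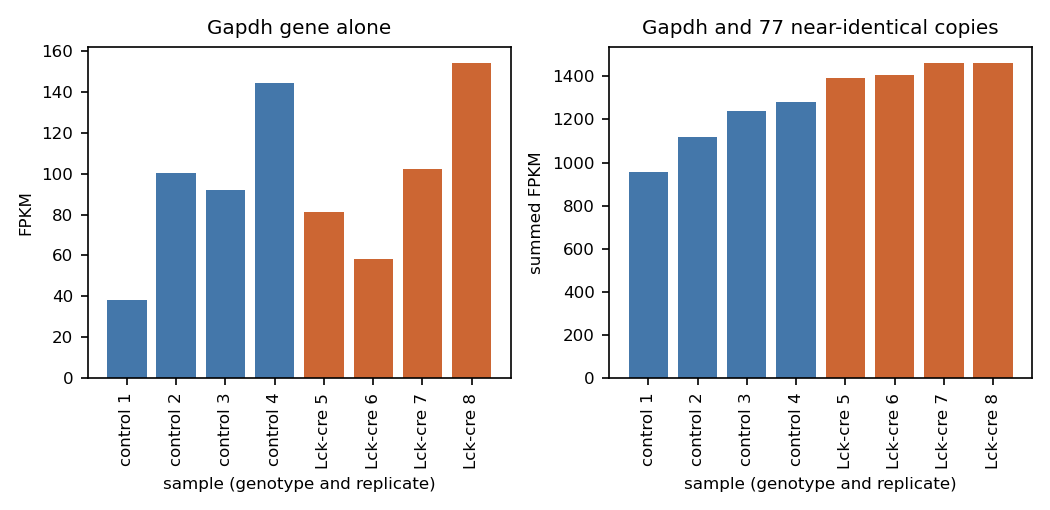
Bars give the FPKM of Gapdh listed under its own gene (left) and summed with its 77 copies (right) in each sample, blue for control and orange for Lck-cre, with each axis from 0. The gene alone runs from 38.2 to 154 FPKM with overlapping genotypes, and the sums run from 958 to 1280 in controls and from 1391 to 1463 in Lck-cre samples.

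Copies mattered less for the other genes: 12 of the 39 had listed copies, which held 25.0% to 26.9% of the summed FPKM for Pgam1, 17.1% to 20.8% for Bnip3l, 15.1% to 16.6% for Pgk1, 14.9% to 16.4% for Eno1 and under 7% for the others apart from Gapdh. With each gene summed with its copies all 17 calls remained. Pgam1 with its copy was at 29.7 ± 4.09 and 41.6 ± 4.66 FPKM and Pgk1 with its copies at 101.3 ± 8.95 and 126 ± 10.8 FPKM.

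At the pyruvate and lactate steps, Ldhb fell and Ldha did not pass the test. Ldhb, whose subunit prevails in tissues that burn lactate, was at 396, 327, 413.5 and 331 FPKM in controls and 266, 318, 301 and 218 FPKM in Lck-cre samples. The groups did not overlap, though control replicate 2 and Lck-cre replicate 6 were near each other, and Ldhb fell by a log2 of 0.42 (log2 change -0.42, SE 0.13, adjusted p = 0.0466 by limma, 0.0220 to 0.158 with samples left out). Ldha, whose subunit prevails in tissues that make lactate, was at 187, 219, 239 and 209 FPKM in controls and 252, 231, 279.7 and 253 FPKM in Lck-cre samples, overlapping through control replicate 3. It missed the threshold (log2 change 0.25, SE 0.09, adjusted p = 0.0572) and passed it without control replicate 3 (0.0416) or Lck-cre replicate 6 (0.0211). The Ldhb share of Ldha and Ldhb RNA was 63.1% ± 3.55 in controls and 51.9% ± 4.79 in Lck-cre samples, again without overlap (exact permutation p = 0.0286, two-sided, the smallest possible; 0.0952 adjusted over 10 shares). In Lck-cre replicate 8 it was 46.3%, the single sample in which the FPKM of Ldha exceeded that of Ldhb. In mean coverage Ldhb, at 1323 to 2620, was above Ldha, at 522 to 798, in every sample.

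Slc16a1, which encodes the lactate transporter MCT1, was at 35.2, 39.1, 42.4 and 37.1 FPKM in controls and between 44.8 and 45.5 FPKM in all 4 Lck-cre samples, and rose by a log2 of 0.23 (SE 0.06, adjusted p = 0.0295 by limma, 0.0207 to 0.124 with samples left out). The call of Slc16a1 ended with TPM values (0.0911) and with quantile normalization (0.05998). Slc16a3, which encodes the export-type transporter MCT4, was at 0.808 ± 0.0936 and 0.793 ± 0.223 FPKM, below the filter. Of the kinases that shut off pyruvate dehydrogenase, Pdk3 rose from 11.7 ± 0.755 to 14.1 ± 0.943 FPKM without overlap (log2 change 0.26, adjusted p = 0.0354, 0.0211 to 0.105 with samples left out), a call that ended with TPM values (0.0726). The more abundant Pdk1, a HIF target, was at 60.8 ± 9.22 and 61.4 ± 4.36 FPKM and was not called (log2 change 0.02, 95% interval -0.14 to 0.19).

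The pentose phosphate pathway was called at 4 of its 7 genes, all higher, with a median log2 change of 0.20. The share called higher was 15.4% among all tested genes. All 3 enzymes of the oxidative branch rose. G6pdx, the glucose 6-phosphate dehydrogenase that opens the pathway, was at 16.9, 16.0, 16.5 and 15.4 FPKM in controls and 19.0, 18.9, 20.3 and 20.7 FPKM in Lck-cre samples (log2 change 0.27, SE 0.06, adjusted p = 0.0179 by limma, 0.0149 to 0.0565 with samples left out). The samples of each genotype lay close together and apart from the other. Pgls, the lactonase of the next step, was at 60.4, 55.0, 72.4 and 59.7 FPKM in controls and 79.9, 80.01, 83.4 and 82.3 FPKM in Lck-cre samples (log2 change 0.40, SE 0.08, adjusted p = 0.0131, 0.0121 to 0.0556 with samples left out). Pgd, which makes ribulose 5-phosphate and the second NADPH, rose from 42.1 ± 0.344 to 48.3 ± 1.73 FPKM (log2 change 0.20, adjusted p = 0.0278, 0.0274 to 0.0872 with samples left out), and this call also ended with TPM values (0.132) and with quantile normalization (0.0616).

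In the non-oxidative branch 1 of 4 genes was called. Tkt, transketolase, was at 52.7, 54.4, 71.5 and 62.9 FPKM in controls and 86.5, 77.4, 90.8 and 90.2 FPKM in Lck-cre samples. All Lck-cre samples lay above control replicate 3, the highest control, and the log2 change was 0.52 (SE 0.10, adjusted p = 0.0107 by limma, 0.00417 to 0.0530 with samples left out). Its partner Taldo1, transaldolase, was more abundant and not called (105 ± 8.33 and 119 ± 9.73 FPKM, adjusted p = 0.0819), and passed without control replicate 3 (0.0487). Rpia and Rpe, the isomerase and epimerase that interconvert pentose 5-phosphates, stood at 19.1 ± 1.67 and 18.8 ± 0.548 FPKM and at 16.4 ± 0.757 and 16.8 ± 0.716 FPKM. Their 95% intervals ran from -0.19 to 0.15 and from -0.12 to 0.18 on the log2 scale. Rpe shares sequence with the overlapping gene Kansl1l.

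**Figure D4:**
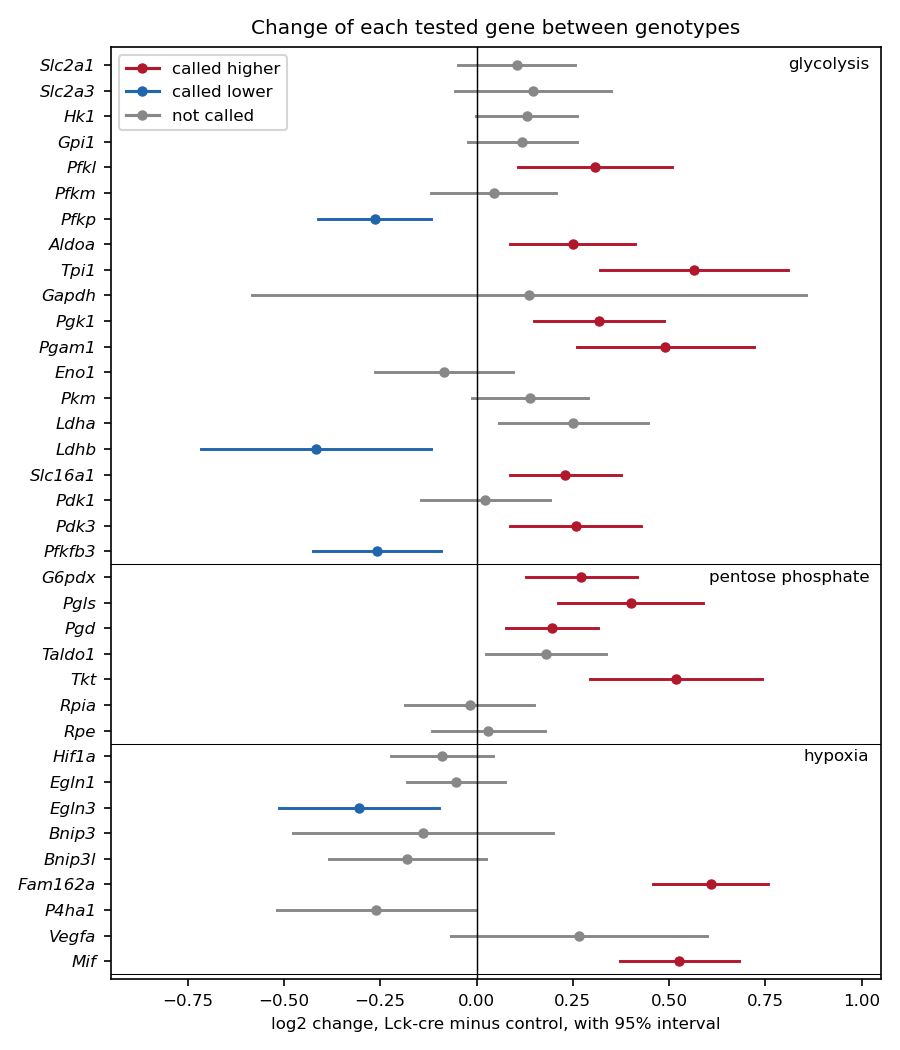
Points give the log2 change (Lck-cre minus control, log2(FPKM + 0.5), limma with sex in the model) of each of the 36 tested genes, and lines its 95% interval. Red marks the 13 genes called higher, blue the 4 called lower and grey the 19 not called, and the interval of Gapdh is by far the widest.

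The hypoxia genes did not move together. Of 9 tested, 2 rose, 1 fell and 6 were not called, and the median log2 change was -0.09, with 3 of the 9 above 0. Calls in both directions were also made among all tested genes, 15.4% higher and 10.4% lower. The regulators of HIF come first. Hif1a was at 27.8 ± 1.44 and 26.0 ± 0.737 FPKM and was not called (log2 change -0.09, 95% interval -0.22 to 0.04), and RNA does not measure the HIF-1 alpha protein, which oxygen controls. The prolyl hydroxylase gene Egln1 was at 24.1 ± 0.823 and 23.2 ± 1.37 FPKM (adjusted p = 0.492 by limma). Egln3, which encodes another HIF prolyl hydroxylase and is itself a HIF target, was at 16.5, 16.3, 15.9 and 17.4 FPKM in controls and 13.2, 15.2, 13.7 and 11.3 FPKM in Lck-cre samples. Every Lck-cre sample was below every control, and Egln3 fell, with a log2 change of -0.30 (SE 0.09, adjusted p = 0.0398, 0.0133 to 0.116 with samples left out). The call of Egln3 held without Lck-cre replicate 6 (0.0133) and ended when any of the other 7 samples was left out, without control replicate 3 by the least (0.0571).

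Fam162a, a mitochondrial protein gene induced by HIF-1, had the largest change of the 36 genes. It was at 16.9, 18.3, 19.6 and 19.0 FPKM in controls and 24.9, 28.4, 32.3 and 28.2 FPKM in Lck-cre samples, with a wide gap between the groups. The log2 change was 0.61 (SE 0.07, adjusted p = 0.00565 by limma), and the adjusted p stayed between 0.00137 and 0.0370 with samples left out. Mif, which encodes a cytokine and is also a HIF target, was at 83.5, 89.6, 103 and 100.7 FPKM in controls and 121, 131, 143 and 147.5 FPKM in Lck-cre samples. The lowest Lck-cre sample was well above the highest control, and the log2 change was 0.53 (SE 0.07, adjusted p = 0.00674, 0.00163 to 0.0420 with samples left out). In the sequences printed above, Fam162a has the HIF core motif and Mif does not.

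The other HIF targets were not called. Bnip3l, a receptor for the removal of mitochondria, was at 43.9, 43.3, 45.0 and 39.9 FPKM in controls and 37.4, 41.6, 41.4 and 32.1 FPKM in Lck-cre samples, overlapping (log2 change -0.18, adjusted p = 0.165 by limma). Its relative Bnip3 was low, at 2.55 ± 0.237 and 2.31 ± 0.597 FPKM (adjusted p = 0.508). P4ha1, a collagen prolyl hydroxylase, was at 9.85 ± 1.80 and 8.06 ± 0.787 FPKM (log2 change -0.26, adjusted p = 0.115) and passed without control replicate 3 (0.0365). Vegfa, the vascular growth factor, was at 2.32 ± 0.535 and 2.87 ± 0.457 FPKM (log2 change 0.27, adjusted p = 0.203).

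Among the samples, control replicate 1, the female, was the lowest control for 20 of the 36 genes and for 12 of the 20 glycolysis genes, and Lck-cre replicate 6 was the lowest of its group for 14 and 12. The cell cycle sum was also lowest in these samples of each group, at 773 FPKM in control replicate 1 and 1246 FPKM in Lck-cre replicate 6; the part of cell division in these levels was not tested. Lck-cre replicate 6 also had the lowest Sting1 of its group. Lck-cre replicates 5 and 8, in which Sting1 was at 220.9 and 232 FPKM, had the lowest Ldhb, Egln3, Bnip3l, Eno1 and P4ha1 of the 8 samples. They also had the highest Slc2a3, Hk1, Hk2 and Pfkl. Of these genes only Ldhb, Egln3 and Pfkl were called, and a relation to the level of Sting1 was not tested. Most members of the set did not share this pattern. Fam162a and the glycolytic gene Pgk1, for example, were both highest in Lck-cre replicate 7.

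**Figure D5:**
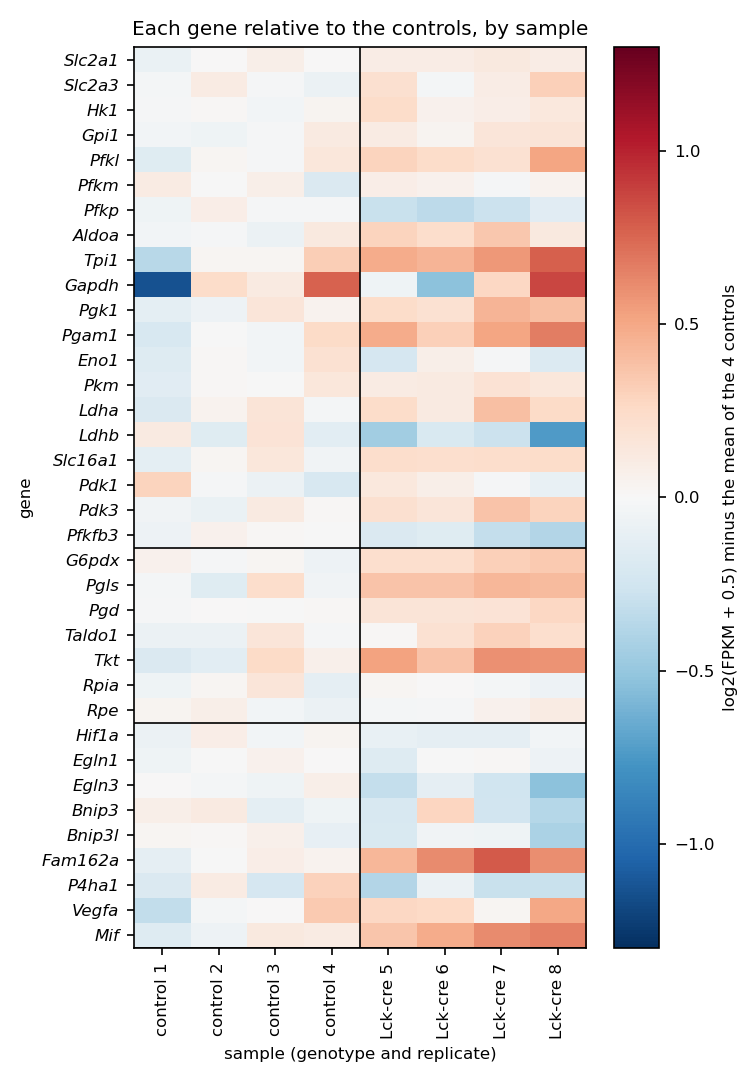
Colour gives log2(FPKM + 0.5) of each of the 36 tested genes in each sample minus the mean of the 4 controls, red above and blue below, with lines between the genotypes and between the glycolysis, pentose phosphate and hypoxia genes. Tpi1, Pgam1, Tkt, Fam162a and Mif are red in all 4 Lck-cre samples, Ldhb, Pfkp and Egln3 are blue in them, and Gapdh varies most, within each genotype.

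Further genes of the same pathways gave a mixed picture. For comparison, 15.4% of all tested genes were called higher and 10.4% lower. None of the 11 tested among 23 other glycolysis genes, such as the isozymes Eno2, Eno3 and Pgam2, was called in either direction by limma, and their median log2 change was 0.00. Of 23 tested genes of pyruvate oxidation and the TCA cycle, 10 rose and 0 fell, with a median log2 change of 0.18. Fh1, fumarase, rose from 14.8 ± 0.614 to 19.4 ± 1.29 FPKM (log2 change 0.37, adjusted p = 0.0104, 0.00347 to 0.0529 with samples left out) and the cytosolic malate dehydrogenase Mdh1 from 72.5 ± 4.57 to 93.5 ± 7.38 FPKM (log2 change 0.36, adjusted p = 0.0119, 0.00370 to 0.0540 with samples left out). For both genes the groups were apart. That count of 10 was 1 without control replicate 1 or Lck-cre replicate 5, 5 without control replicate 2, and 6 without control replicate 4 or Lck-cre replicate 7.

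Among 7 tested genes next to the pentose phosphate pathway, 1 rose and 2 fell, beside 15.4% higher and 10.4% lower of all tested genes. Prps1, which makes the nucleotide precursor PRPP from ribose 5-phosphate, rose from 23.1 ± 2.01 to 28.7 ± 1.52 FPKM (adjusted p = 0.0175 by limma, 0.0117 to 0.0772 with samples left out). H6pd, the glucose 6-phosphate dehydrogenase of the endoplasmic reticulum, fell from 51.8 ± 5.19 to 37.9 ± 4.52 FPKM (log2 change -0.45, adjusted p = 0.0154, 0.0181 to 0.0448 with samples left out). Idnk, gluconokinase, fell from 50.2 ± 5.87 to 41.3 ± 3.25 FPKM (adjusted p = 0.0400, 0.0150 to 0.163 with samples left out). In cytosol and endoplasmic reticulum the entry enzymes of the oxidative branch moved in opposite directions, G6pdx up and H6pd down.

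Of 15 tested other hypoxia genes, 2 rose and 3 fell, against 15.4% higher and 10.4% lower among all tested genes. Ndrg1, a hypoxia-induced gene, rose from 6.38 ± 0.730 to 8.71 ± 1.26 FPKM (adjusted p = 0.0127 by limma, 0.00582 to 0.0594 with samples left out), and Higd1a, a mitochondrial HIF target, rose from 8.74 ± 1.13 to 12.0 ± 1.59 FPKM with overlapping groups (0.0259, 0.00881 to 0.0955 with samples left out). Epas1, which encodes the HIF-2 alpha subunit, was low and fell from 1.31 ± 0.161 to 0.704 ± 0.105 FPKM (log2 change -0.59, adjusted p = 0.0140, 0.0106 to 0.0602 with samples left out). Its controls were at 1.12 to 1.51 FPKM and its Lck-cre samples at 0.568 to 0.816 FPKM. Epas1 thus passed the filter of at least 1 FPKM in at least 4 samples through the controls alone. That selection favours a call of lower, and the count of 3 includes it. Hif1an, the asparagine hydroxylase that blocks HIF activity, fell from 17.6 ± 0.648 to 14.1 ± 0.963 FPKM (adjusted p = 0.0157, 0.00668 to 0.0670 with samples left out). The other gene that fell was Egln2, a prolyl hydroxylase like Egln3 and named after its values were seen (52.3 ± 1.0 and 46.1 ± 2.42 FPKM, adjusted p = 0.0485). Its call ended in 7 of 8 fits with a sample left out and held without Lck-cre replicate 6 (adjusted p of 0.0258 to 0.158 over the 8).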

How the data were processed

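RNA of 8 samples, 4 control and 4 Lck-cre, was analysed from 1 deposited table per sample. Each gene has FPKM, TPM and mean coverage values, all made by the authors, per the file headers. FPKM was used here, TPM as an alternative, and coverage only beside it; read totals, and so counting error, are not known. The authors used HISAT and Bowtie2, per the submitters' processing notes (versions not given in the sources used here, and likewise the build, the annotation and the treatment of reads with several matches). The last bears on genes with copies. Groups were taken from the labels.

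Genes with at least 1 FPKM in at least 4 samples (12337 genes) were tested on log2(FPKM + 0.5), which understates changes of low genes, with limma 3.58.1 (R 4.3.3; variance trend, sex and genotype in the model, two-sided, Benjamini-Hochberg over all tested genes). The procedure was tested on simulated data. Isozyme shares were compared by exact permutation over samples (SciPy 1.17.1). Copies were found with BLAST 2.17.0 against GENCODE transcripts. The genes named are all members of the set and, from each further list, the 2 called higher and 2 called lower with the smallest adjusted p. The values of 1 gene of the marker lists are not reported here. The members and lists were chosen with earlier results of these data known. Alternatives covered scaling, pseudocount, filter, threshold, sex term, males alone and leaving out each sample.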

Additional observations from a re-analysis of the deposited data

Results flagged for a closer look

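Within groups of 4 samples, 116 gene and share groups were checked for a sample set apart from the other 3, and 3 were found; chance gives about 1 in 20. Slc2a1 was at 8.27 FPKM in Lck-cre replicate 7 and at 8.07 to 8.08 FPKM in the other Lck-cre samples. Pgd was at 50.9 FPKM in Lck-cre replicate 8 and at 47.3 to 47.7 FPKM in the others. Higd1a was at 10.4 FPKM in control replicate 3 and at 8.06 to 8.29 FPKM in the other controls.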

How the results depend on the processing

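All 17 called genes kept their direction under all alternatives. Of the genes not called, Gapdh (-0.18 to 0.45), Pdk1 (-0.05 to 0.08), Pfkm (-0.03 to 0.08), Rpe (-0.04 to 0.06) and Rpia (-0.09 to 0.04) changed sign under at least 1 alternative (ranges of the log2 change). The split of all calls, 1901 higher and 1279 lower, turned to 1300 and 2067 with TPM. With median-of-ratios scaling, pseudocounts of 0.1 and 1, a filter on the mean FPKM, or no sex term, all 17 calls remained. Of all genes, 3180 were called: 1056 with no filter (28851 genes tested), 652 in males only, 512 at an adjusted p under 0.01 and 647 to 3889 with a sample left out. Glycolysis genes called higher, 7, became 3 with TPM, 4 with quantile normalization, and 0 with no filter, in males only and at adjusted p under 0.01, and 0 to 8 with a sample left out. Those called lower, 3, became 1 with no filter, 0 in males only, 0 at adjusted p under 0.01 and 0 to 3 with a sample left out. Pentose phosphate genes called higher, 4, became 2 with no filter, 0 in males only, 0 at adjusted p under 0.01 and 0 to 5 with a sample left out. The hypoxia gene called lower became 0 with no filter, in males only and at adjusted p under 0.01, and 0 to 1 with a sample left out. In males only, limma gave an unadjusted p under 0.05 to 7 glycolysis genes higher and 2 lower, 5 pentose phosphate genes higher and 1 hypoxia gene lower; with no filter to 10, 3, 5 and 1. Each group has 1 female, so with sex in the model a fit without either female compares the males alone. No paired analysis was possible because the replicate numbers of the groups, 1 to 4 and 5 to 8, are not shared. Without read totals, counting error at low genes such as Hk2 is not known.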
